A study of Mus musculus with 28 samples.

Results

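Embryonic fibroblasts given Hnf4a together with Foxa1 were compared here with fibroblasts given Hnf4a together with Foxa2, both as established induced hepatocyte-like (iHep) cells. The comparison used 7 of the 28 libraries of the series, chosen by their titles: replicates 1 to 3 of the Foxa1 iHep cells and replicates 1 to 4 of the Foxa2 iHep cells. These 7 share a library type in which Rn7sk, a short nuclear RNA, was low (0 to 2.16 CPM, read counts scaled by library size). The other 3 Foxa1 iHep libraries held Rn7sk at 47.2 to 67.9 CPM and entered only where named. The fibroblasts came from C57BL/6 mouse embryos taken 13.5 days after conception and were infected with retroviruses. Both groups therefore carry Hnf4a, and they differ in the Foxa gene. Other groups used beside them were cells of the same 2 infections at 48 h (2 libraries each), uninfected fibroblasts (MEF, 2 libraries) and hepatocytes of C57BL/6 mice 10 weeks old (Hep, 2 libraries). No iHep or 48 h library of cells infected with Hnf4a alone or an empty virus was used here. The labels do not say whether the numbered libraries came from separate cultures, so p-values measure the spread between these libraries, which may be technical.

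Foxa1 and Foxa2 are forkhead transcription factors that can bind their sites in closed chromatin and open it for other factors. Both are active in the endoderm that forms liver, lung, pancreas and gut, and in the liver they are known to act beside Hnf4a, a nuclear receptor of hepatocytes. Their DNA-binding domains are closely alike, and in the developing liver one can largely stand in for the other. Forced expression of Hnf4a with a Foxa factor is a known route from fibroblasts to cells with hepatocyte features. Comparing the pairs at the same stage asks how far the outcome depends on which Foxa gene was supplied.

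Assigned reads ranged from 18001889 to 31216564 in the 7 libraries, a range in which 3 counts correspond to 0.0961 to 0.167 CPM. Foxa1 replicate 2 stood apart from the other 6 libraries. Across the 14057 genes tested, its log2 levels correlated with the others with r from 0.861 to 0.928, while pairs between the groups without it gave 0.925 to 0.966 and pairs among the Foxa2 libraries 0.926 to 0.945. These correlations run across genes, which are not independent replicates. It held the highest value of the 7 for 26.1% of genes and the lowest for 25.1%, and the first principal component, with 39.2% of the variance, separated it from the rest. List medians and fold changes that move most without it are given below with and without it. The most similar pair of libraries crossed the groups, Foxa1 replicate 1 with Foxa2 replicate 1 at 0.966.

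The introduced genes matched the labels in all 7 libraries. Foxa1 stood at 1812, 1345 and 3419 CPM in the Foxa1 cells and at 0.0365, 0.129, 0.535 and 1.43 CPM in the Foxa2 cells. Foxa2 stood at 0.433, 0.118 and 0.669 CPM in the Foxa1 cells and at 3281, 2364, 988 and 1248 CPM in the Foxa2 cells. The supplied gene was thus high in every library of its own group and near 0 in every library of the other, with no overlap. Reads of the viral copy and of the cell's own gene were not separated, and in bulk RNA fewer expressing cells and less RNA per cell cannot be told apart. The log2 fold change (Foxa1 minus Foxa2 cells, with its standard error) was -12.25 ± 0.89 for Foxa2, which was called with an adjusted p of 0.0324 in edgeR's quasi-likelihood test. It was 12.01 ± 1.15 for Foxa1, which missed the threshold of 0.05 with an adjusted p of 0.105. Foxa1 was called by the DESeq2 Wald test (adjusted p = 6.97e-37) and by edgeR with all 28 libraries in the fit (5.59e-09). Leaving out any 1 of the 7 libraries ended the call of Foxa2, with adjusted p from 0.0607 to 0.304 in edgeR.

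Hnf4a, supplied to both groups, was present in all 7 libraries at uneven levels. It stood at 262, 314 and 108 CPM in the Foxa1 cells and at 258, 316, 151 and 33.3 CPM in the Foxa2 cells. The groups overlapped, with the lowest value in Foxa2 replicate 4 and the 2 highest in replicate 2 of each group. The log2 fold change was 0.28 ± 0.70, with a 95% interval from -1.37 to 1.92, and its sign turned in several alternatives. Foxa3, which neither group received, was at 0 to 0.627 CPM in the 7 libraries, against 189.5 and 124 CPM in hepatocytes.

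**Figure D1:**
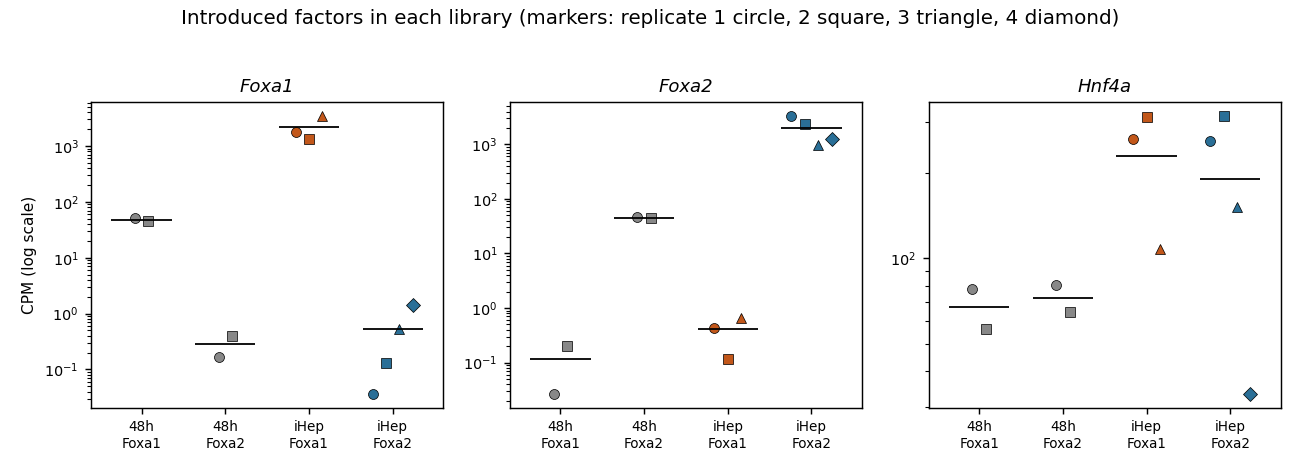
Levels of the introduced genes in CPM (log axis) in each 48 h library (grey) and each iHep library (Foxa1 cells orange, Foxa2 cells blue); markers are replicates and the bar is the group mean. Foxa1 and Foxa2 do not overlap between the iHep groups, while Hnf4a spans 33.3 to 316 CPM with the groups mixed.

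Beyond the supplied genes, few transcripts separated the cell types at this number of libraries. Of 14057 genes tested, 1 (0.00711%) was called, Foxa2 itself. At an unadjusted p under 0.05 there were 941 genes (6.69%), 512 higher and 429 lower with Foxa1. The values of the groups did not overlap for 999 genes (7.11%), with the Foxa1 cells above in 490 (3.49%) and the Foxa2 cells above in 509 (3.62%). Within each group, the median standard deviation of log2 CPM was 0.31 for the Foxa1 cells and 0.31 for the Foxa2 cells. The median absolute difference of the group means was 0.22. A spread of single libraries and a difference of means are unlike measures, so their sizes are not set against each other. Without replicate 2 the standard deviation in the Foxa1 cells was 0.19.

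The data also bounded how large most differences could be. For 8025 of the 14057 genes (57.1%) the 95% interval of the fold change lay within 2-fold in either direction, and for 80.9% within 4-fold. Among the 10883 genes at a mean of 5 CPM or more, 70.3% had an interval within 2-fold. The remaining genes had wider intervals, so a difference of 2-fold could not be set aside for them.

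**Figure D2:**
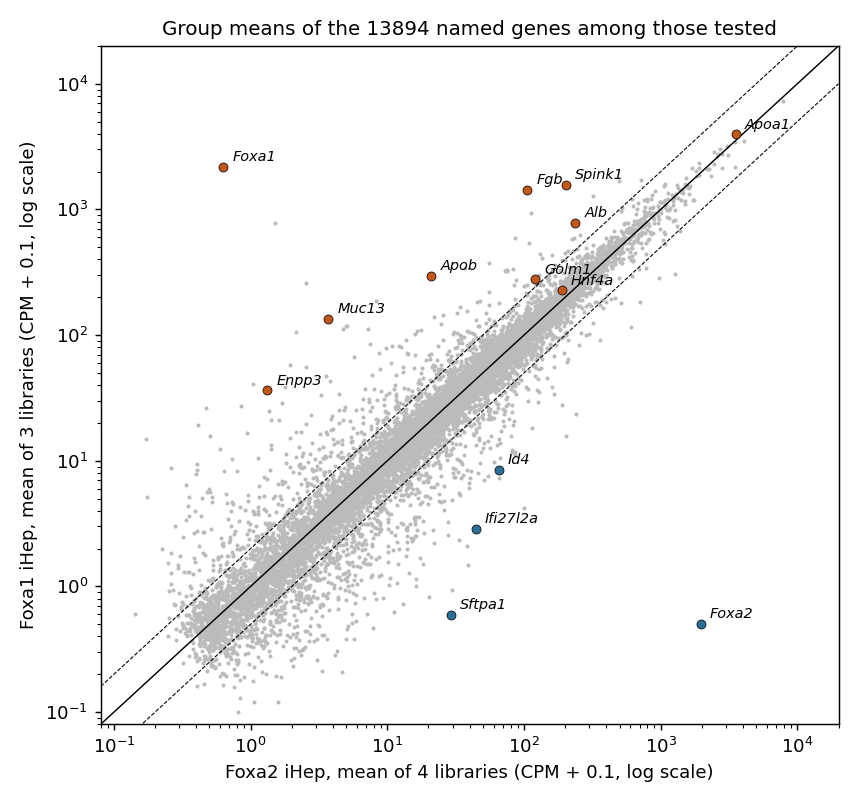
Each point is 1 of the 13894 named genes among those tested, plotted by its mean level in the 4 Foxa2 iHep libraries and in the 3 Foxa1 iHep libraries (CPM + 0.1, log axes); the solid line marks equal means and the dashed lines 2-fold differences. Foxa1 and Foxa2 lie far from the line, most genes lie between the dashed lines, and Alb, Spink1 and Muc13 have means set largely by 1 library; Muc13 was chosen after its values were seen.

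The number of genes called differed between tools and sets of libraries, which also differed in the genes tested. The DESeq2 Wald test on the same 7 libraries called 118 of 14686 genes (0.803%), 63 higher and 55 lower with Foxa1. With all 28 libraries in 1 edgeR fit, 49 of 17019 genes (0.288%) were called, 38 higher and 11 lower. That fit estimates the spread with 17 residual degrees of freedom in place of 5. It shares the estimate with 48 h, MEF and Hep libraries, whose replicate spread differs from that of the iHep cells. Its p-values, here and below, therefore rest partly on the spread of other groups. The Wald test and the 28-library fit called 34 genes in common, among them Golm1, Enpp3, Me2, Bace2, Sox21, Fgb and Hmga2. Without Foxa1 replicate 2, the Wald test called 48 genes and the remaining 27 libraries in 1 fit called 9. Apart from Foxa2, the genes named in the next paragraphs were not called by edgeR in the 7 libraries alone and are given as values. Some of them were called by the Wald test on the same 7 libraries. Where no test is named below, called means called by edgeR on the 7 libraries.

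Enpp3, an ectonucleotide pyrophosphatase of the cell surface, had the widest gap between the groups after Foxa1 itself, among genes with a Foxa1 mean of at least 5 CPM. Enpp3, Golm1, Bace2, Me2, Vcam1, Id4 and Ifi27l2a were singled out after their values were seen. Enpp3 stood at 25.5, 31.1 and 52.9 CPM in the Foxa1 cells and at 1.61, 1.09, 0.283 and 1.89 CPM in the Foxa2 cells. At their nearest, the lowest Foxa1 value was 13.5 times the highest Foxa2 value. The log2 fold change was 4.91 ± 0.63 (95% interval 3.43 to 6.39), with an adjusted p of 0.349 in edgeR on 7 libraries, 0.000317 with 28 libraries and 3e-13 in the Wald test. Without Foxa1 replicate 2 it was 5.02. The 3 Foxa1 iHep libraries of the other library type, not used in this fit, held Enpp3 at 22.9 to 39.8 CPM. At 48 h the level was 10.8 and 9.69 CPM with Foxa1 and 12.5 and 10.4 CPM with Foxa2, in MEF 6.08 and 9.04 CPM and in hepatocytes 24.2 and 43.1 CPM. MEF and Hep share the low-Rn7sk library type. The Foxa1 iHep cells thus lay within or near the hepatocyte range and the Foxa2 iHep cells below the fibroblasts.

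Golm1, which codes for a Golgi membrane protein, had the smallest p after the supplied factors. It stood at 262, 313 and 258 CPM in the Foxa1 cells and at 135, 109.5, 102 and 136 CPM in the Foxa2 cells, a log2 fold change of 1.21 ± 0.15 (adjusted p = 0.349 in edgeR on 7 libraries and 0.00035 with 28). Hepatocytes held little of it (2.69 and 2.62 CPM) and MEF 77.8 and 57.6 CPM, so the Foxa1 cells were the farther of the groups from hepatocytes. Bace2, an aspartic protease, stood at 104, 152 and 117 CPM against 64.2, 54.4, 53.6 and 37.7 CPM (log2 fold change 1.25 ± 0.21, adjusted p = 0.731 in edgeR on 7 libraries and 0.00449 with 28). Me2, the mitochondrial malic enzyme, stood at 55.8, 72.5 and 59 CPM against 34, 28.3, 32.9 and 30.7 CPM (log2 fold change 0.996 ± 0.14, adjusted p = 0.425 in edgeR on 7 libraries and 0.047 with 28). In both genes every Foxa1 library lay above every Foxa2 library, and replicate 2 was the highest of the Foxa1 libraries. Vcam1, an adhesion molecule for leukocytes, stood at 102, 234 and 79.4 CPM against 19.6, 31.3, 11.2 and 25.8 CPM, a log2 fold change of 2.66 ± 0.48 that was 2.05 without Foxa1 replicate 2 (adjusted p = 0.731 in edgeR on 7 libraries, 0.0546 with 28 and 0.000142 in the Wald test). Sox21, a repressor of the Sox family, stood at 43.4, 64.7 and 35.1 CPM against 11.6, 8.73, 1.29 and 8.93 CPM, and was at most 1.26 CPM in the 48 h libraries of either infection. Its adjusted p was 0.731 in edgeR on 7 libraries, 0.0336 with 28 and 0.0117 in the Wald test. The 3 Foxa1 libraries of the other type held Vcam1 at 14.3 to 166 CPM, which overlaps the Foxa2 values. Golm1 was there at 192 to 252 CPM and Bace2 at 132 to 165 CPM, above the Foxa2 values. So were Me2 (56.1 to 103 CPM) and Sox21 (14.8 to 20.4 CPM).

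Id4 and Ifi27l2a had the smallest p after Foxa2 among genes lower with Foxa1. Id4, an inhibitor of basic helix-loop-helix factors and a target of BMP signalling, stood at 10.2, 2.78 and 12.2 CPM in the Foxa1 cells and at 50.3, 59, 78.5 and 72.9 CPM in the Foxa2 cells. The groups lay 4.14 times apart at their nearest values, with a log2 fold change of -2.95 ± 0.51 (adjusted p = 0.731 in edgeR on 7 libraries, 0.0539 with 28 and 2.54e-06 in the Wald test). Ifi27l2a, an interferon-induced gene, stood at 2.91, 1.41 and 4.02 CPM against 24.9, 69.6, 18.7 and 63.8 CPM (log2 fold change -3.99 ± 0.67, adjusted p = 0.731 in edgeR on 7 libraries, 0.0577 with 28 and 2.16e-08 in the Wald test). Hmga2, a chromatin protein of fetal cells that is nearly silent in adult liver, stood at 147, 72 and 91.4 CPM against 328, 160.3, 304 and 261 CPM (log2 fold change -1.34 ± 0.33, adjusted p = 0.731 in edgeR on 7 libraries and 0.0389 with 28). Phlda3, a p53 target that restrains Akt, stood at 291, 188 and 398 CPM against 689, 499.7, 664 and 617 CPM. The adjusted p of Phlda3 was 0.731 in edgeR on 7 libraries, 0.0848 with 28 and 0.0443 in the Wald test. Hmga2 and Phlda3 were both lowest in Foxa1 replicate 2. In hepatocytes Hmga2 was 7.22 and 8.72 CPM and Phlda3 2.94 and 2.24 CPM, so for these genes the Foxa1 cells were the nearer group, at levels still far above hepatocytes.

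**Figure D3:**
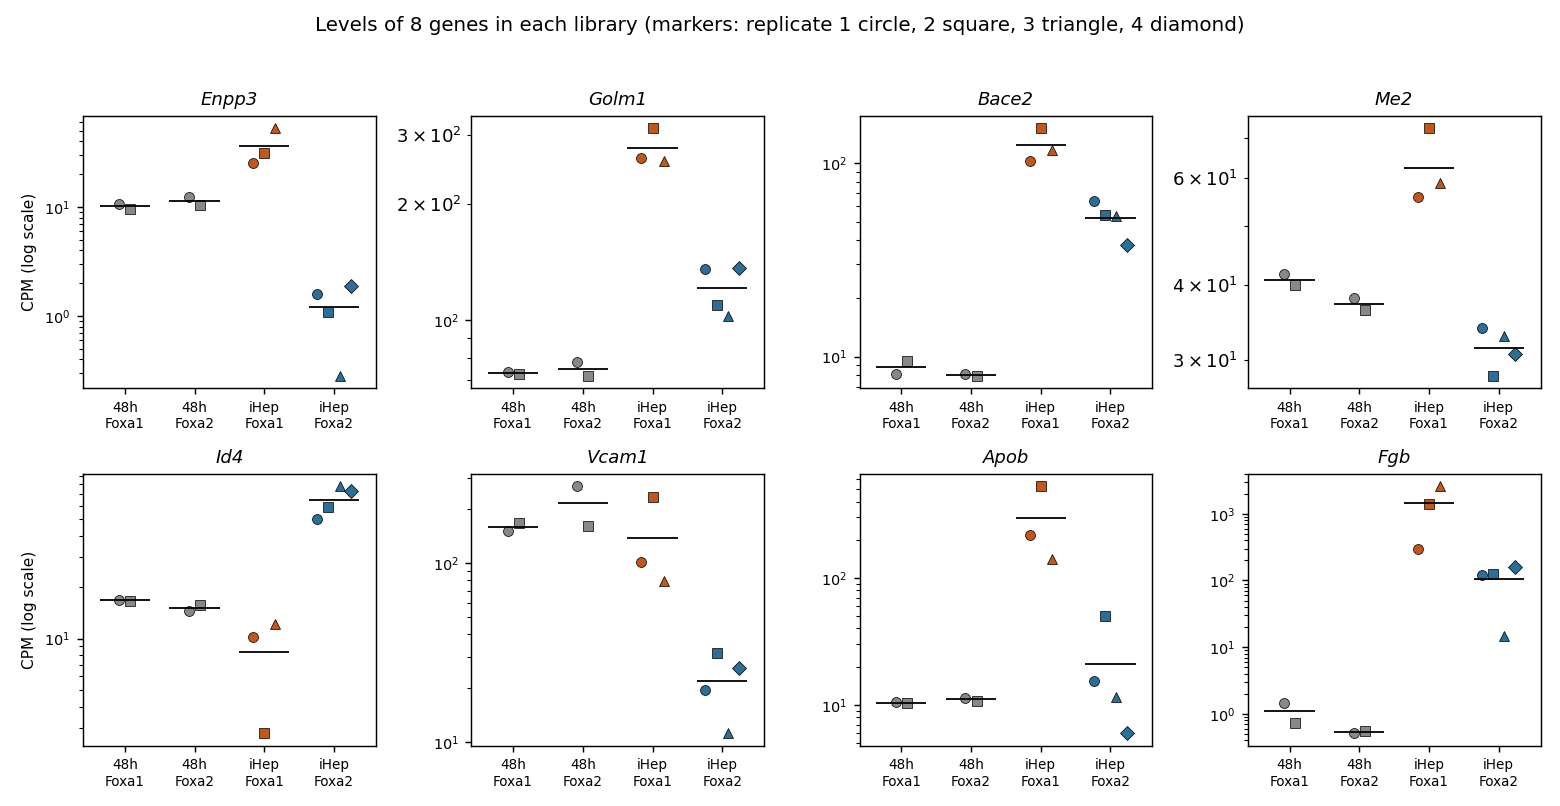
Levels in CPM (log axes) of 8 genes in each 48 h library (grey) and each iHep library (Foxa1 cells orange, Foxa2 cells blue); markers are replicates and bars are group means. In all 8 genes the iHep groups do not overlap, and the highest 48 h library is at most 1.29 times the lowest except for Vcam1 (1.80 times) and Fgb (2.88 times); the 48 h libraries are of the other library type.

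Promoter sequences are shown for Enpp3, the gene with the widest gap, and for Apob, a liver gene described next, to show which forkhead-type letters lie before each start. They come from RefSeq on GRCm38.p6, a later build than the mm9 of the deposited values, and cover the 250 bases before the annotated start. Capitals mark a match to TGTTTAC or TGTTTGC on either strand, letters known to be bound by forkhead factors. Enpp3 lies on the minus strand at chr10:24836196-24836445 and Apob on the plus strand at chr12:7977427-7977676.
Enpp3: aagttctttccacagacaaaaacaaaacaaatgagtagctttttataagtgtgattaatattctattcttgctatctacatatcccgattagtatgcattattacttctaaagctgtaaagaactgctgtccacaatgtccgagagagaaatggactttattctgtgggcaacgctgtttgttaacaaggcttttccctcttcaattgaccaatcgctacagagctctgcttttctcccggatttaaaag
Apob: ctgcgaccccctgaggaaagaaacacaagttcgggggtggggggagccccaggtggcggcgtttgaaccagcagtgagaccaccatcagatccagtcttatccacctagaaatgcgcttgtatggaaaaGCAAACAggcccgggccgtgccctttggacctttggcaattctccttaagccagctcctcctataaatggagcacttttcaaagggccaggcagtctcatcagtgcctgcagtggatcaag
The Apob window held 1 match, TGTTTGC read on the minus strand (GCAAACA as printed), starting 121 bases before the annotated start. The Enpp3 window held 0 matches, as did the Golm1 window. Of 32851 RefSeq promoters, 3.17% held TGTTTAC and 4.3% TGTTTGC in the same 250 bases. A match is a description of these letters only.

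Apob codes for the structural protein of very low density lipoprotein. It stood at 219, 532 and 142 CPM in the Foxa1 cells and at 15.4, 50.5, 11.6 and 5.96 CPM in the Foxa2 cells, with no overlap. The log2 fold change was 3.84 ± 0.82 (adjusted p = 0.731 in edgeR on 7 libraries, 0.0577 with 28 and 0.00029 in the Wald test) and 3.12 without Foxa1 replicate 2. All 7 values were far under the 5172 and 6433 CPM of hepatocytes, and the 3 Foxa1 libraries of the other type held 10.7 to 61.3 CPM, which overlaps the Foxa2 values. Apoa1, a structural protein of high density lipoprotein, was high in both groups (3154, 4645 and 4168 CPM against 3535, 6319, 2570 and 1827 CPM), with an interval of the log2 fold change from -0.80 to 1.15. Of 14 apolipoprotein and lipoprotein genes tested, 0 were called, 10 had a positive fold change and the median was 0.18, beside a median of 0.01 over all genes tested.

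Among hepatic transcription factors, 15 of 20 were tested, 0 were called and 11 were higher on average with Foxa1. Their median log2 fold change of 1.02 came to 0.31 without Foxa1 replicate 2, which held the highest value of 8 of them. Gata4, a factor of early liver and gut endoderm, stood at 31.5, 81.2 and 31.1 CPM against 17.7, 14.5, 4.85 and 8.89 CPM, a log2 fold change of 2.07 ± 0.53 that was 1.46 without that library. Its groups did not overlap, and Foxa1 replicate 2 was the highest. The 3 Foxa1 libraries of the other type held Gata4 at 10.0 to 14.7 CPM, within the Foxa2 range. Gata4 is 1 of the 5 members (33.3%) higher at an unadjusted p under 0.05, against 3.64% of all genes, and was singled out after its values were seen. Cebpa, a factor of hepatocyte metabolism, stood at 111, 154 and 74.5 CPM against 141, 148, 136 and 102 CPM, with an interval from -0.80 to 0.38 on the log2 scale, and at 2347 and 1747 CPM in hepatocytes.

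Genes for secreted liver proteins varied widely between libraries of 1 group. Albumin, the main plasma protein, stood at 1683, 313 and 349.5 CPM in the Foxa1 cells and at 914, 18.6, 14.6 and 3.04 CPM in the Foxa2 cells. Replicate 1 was the highest in each group, and Foxa2 replicate 1 lay above Foxa1 replicates 2 and 3. Its log2 fold change was 1.73 ± 1.78, with an interval from -2.46 to 5.92 that holds no difference as well as large ones in either direction. It was 0.47 without Foxa1 replicate 1 and 6.01 without Foxa2 replicate 1. Hepatocytes held Alb at 148900 and 131100 CPM, so the labelled hepatocyte-like state included far less of this defining transcript. Ahsg, which codes for fetuin, stood at 996, 48.2 and 678 CPM against 1009, 536, 71.6 and 129.5 CPM, with Foxa1 replicate 2 the lowest of the 7. Of 19 plasma protein genes tested, 0 were called, 14 had a positive fold change and the median was 1.12 (1.22 without Foxa1 replicate 2), against 0.01 over all genes. Ttr and Afp, carrier proteins of adult and fetal liver chosen after their values were seen, were high in 1 library only. Ttr stood at 0.402, 43.9 and 0.464 CPM against 0.219, 0.0644, 0 and 0 CPM, and Afp at 12.6, 301 and 1.65 CPM against 6.79, 0.258, 0.504 and 0.678 CPM.

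Fgb, the beta chain of fibrinogen, was higher in each Foxa1 library than in any Foxa2 library. It stood at 299, 1401 and 2619 CPM against 119, 126, 14.5 and 162 CPM, a log2 fold change of 3.78 ± 0.95 that was 3.81 without Foxa1 replicate 2 and 2.99 without Foxa1 replicate 3 (adjusted p = 0.731 in edgeR on 7 libraries and 0.0389 with 28). The 3 Foxa1 libraries of the other type held 919 to 3265 CPM, and hepatocytes 9321 and 10360 CPM. The other chains, looked up after these values were seen, were far lower: Fga was at most 8.5 CPM and Fgg at most 38.3 CPM in the 7 libraries. C3, the central complement component, stood at 372, 21 and 515 CPM against 376, 528, 253 and 440.5 CPM and was lowest in Foxa1 replicate 2. Of 18 coagulation and complement genes tested, 0 were called and the median log2 fold change was 0.68 (0.94 without Foxa1 replicate 2).

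Detoxification and small-molecule metabolism had small list medians. Gsta4, a glutathione transferase for lipid aldehydes, stood at 1786, 1732 and 1652 CPM against 982, 1013, 453 and 404 CPM, with tight Foxa1 values above every Foxa2 value and a log2 fold change of 1.28 ± 0.36 (adjusted p = 0.731 in edgeR on 7 libraries, 0.0389 with 28 and 0.0861 in the Wald test). The 3 Foxa1 libraries of the other type held Gsta4 at 693 to 1279 CPM, which overlaps the Foxa2 values. Cyp3a13, a cytochrome P450 singled out after its values were seen, was high in Foxa1 replicate 2 alone (1.18, 121 and 1.03 CPM against 0.182, 1.32, 1.61 and 0.678 CPM). Of 19 xenobiotic genes tested 11 had a positive fold change, with a median of 0.12. Glul, glutamine synthetase, stood at 1494, 1151 and 1279 CPM against 1766, 1357, 967 and 786 CPM, and its interval lay from -0.55 to 0.77 on the log2 scale. The medians were 0.18 for 14 amino acid and urea genes, 0.31 for 7 glucose and fructose genes, 0.33 for 14 fatty acid oxidation genes and -0.43 for 8 bile acid genes, with 0 called in each. Without Foxa1 replicate 2 the glucose and oxidation medians were 0.03 and 0.01.

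Cholesterol and fatty acid synthesis genes lay on 1 side throughout. All 24 members tested had a positive log2 fold change, 11 of them (45.8%) at an unadjusted p under 0.05 against 3.64% of all genes in that direction, and 7 (29.2%) had Foxa1 libraries above all Foxa2 libraries against 3.49%. None was called after adjustment by edgeR in the 7 libraries. The median was 0.71, and 0.42 without Foxa1 replicate 2, which held the highest value of 21 of the 24. Srebf2, the transcription factor that controls the pathway, stood at 151, 178 and 163 CPM against 108, 125, 102 and 97.9 CPM, and was singled out after its values were seen. Its log2 fold change of 0.61 ± 0.13 was small, with narrow groups that did not overlap (adjusted p = 0.731 in edgeR on 7 libraries, 0.0784 with 28, 0.0157 in the Wald test and 0.308 in the Wald test without Foxa1 replicate 2). Hmgcs1, which makes the substrate of the pathway's rate-limiting reductase, stood at 205, 639 and 248 CPM against 109.9, 216, 168 and 176 CPM, where Foxa2 replicate 2 lay above Foxa1 replicate 1. Hepatocytes held Hmgcs1 at 4193 and 4377 CPM. They held Srebf2 at 88.1 and 83.6 CPM, and MEF held it at 238 and 244 CPM. For Srebf2 the Foxa1 cells were thus the farther of the groups from hepatocytes.

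Epithelial genes varied between libraries within each group. Cdh1, the epithelial cadherin, stood at 617, 1014 and 522 CPM in the Foxa1 cells and at 428, 967, 682 and 340.3 CPM in the Foxa2 cells, against 0.192 and 0.19 CPM in MEF. Replicate 2 was the highest library in each group. The log2 fold change was 0.26 ± 0.40 (interval -0.69 to 1.20), with the opposite sign without Foxa1 replicate 2. Krt8, a keratin of simple epithelia, stood at 719, 2789 and 309 CPM against 88.5, 744, 320.2 and 125 CPM, with the same 2 libraries highest. Of 29 junction and keratin genes tested, 20 were positive with a median of 0.45, which was -0.25 without Foxa1 replicate 2, so the direction of this list rests on that library. The 16 epithelial regulators had a median of -0.15, and -0.89 without it, and Foxa2 replicate 2 held the highest value of 8 of them.

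Fibroblast genes were detected in both groups, and the summed collagen and matrix level lay well below that of fibroblasts. Collagens and matrix genes summed to 3665 to 12840 CPM in the Foxa1 libraries and 11630 to 15800 CPM in the Foxa2 libraries. In MEF they summed to 102000 and 104700 CPM and in hepatocytes to 2427 and 2591 CPM. The 3 Foxa1 libraries of the other library type, not used in this fit, summed to 5190, 2321 and 1738 CPM. Among the 7 libraries, Foxa1 replicate 2, at 3665 CPM, was the lowest in 23 of 35 genes. Fn1, fibronectin, stood at 4730, 779.5 and 5016 CPM against 5249, 3069, 2882 and 5171 CPM, where that replicate alone was low. Col6a1, a beaded-filament collagen chain, stood at 222, 53.5 and 584 CPM against 383, 606, 1879 and 998 CPM, with Foxa2 replicate 3 the highest. Of the 35 log2 fold changes 8 were positive, 0 genes were called, and the median of -0.64 was -0.17 without Foxa1 replicate 2. Thbs1, a matrix protein that activates latent TGF-beta and was singled out after its values were seen, stood at 319, 88.5 and 134 CPM against 469, 273, 663 and 659 CPM. Ltbp1, which holds latent TGF-beta in the matrix, stood at 218, 142 and 158 CPM against 247, 279.5, 507 and 401 CPM, with no overlap (log2 fold change -1.05 ± 0.30, adjusted p = 0.731 in edgeR on 7 libraries). The 3 Foxa1 libraries of the other type held Ltbp1 at 138 to 262 CPM, which overlaps the Foxa2 values. MEF held Ltbp1 at 769 and 231.5 CPM, a range that holds every Foxa2 value. The receptor Tgfbr2 stood at 404, 387 and 336 CPM against 367, 364, 298 and 339 CPM, with an interval from -0.17 to 0.45 that lies within 2-fold. Of 24 TGF-beta genes, 19 were lower on average with Foxa1, 0 were called and the median was -0.44. Tpm2, a tropomyosin of contractile fibres, stood at 96.9, 106 and 85.5 CPM against 151, 133, 225 and 167 CPM with no overlap, while the 13 contractile genes together had a median of -0.32.

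Genes of other endodermal organs were present in both groups and were unevenly spread over single libraries. Spink1, a trypsin inhibitor of pancreas and gut, stood at 198, 4159 and 357 CPM against 405, 105, 206 and 91.7 CPM. Lgals4, a lectin of gut epithelium, stood at 278, 2406 and 121 CPM against 42.5, 87.4, 286 and 33.4 CPM. Vil1, a villus actin-binding protein, stood at 101, 962 and 54.5 CPM against 133, 46.6, 26.6 and 14.7 CPM. In these 3 genes Foxa1 replicate 2 was the highest of the 7 and the other libraries overlapped. The 3 Foxa1 libraries of the other library type held Spink1 at 3806 to 8993 CPM and Lgals4 at 218.5 to 825 CPM. For Spink1 a high level was therefore not confined to replicate 2 among all Foxa1 iHep libraries. The log2 fold change of Spink1 was 2.97 ± 1.10 with all 7 libraries and 0.48 without Foxa1 replicate 2, and that of Lgals4 was 3.07 ± 1.18 and 0.84. The 18 intestinal genes tested had a median of 2.44 with that library and 0.34 without it, and 0 were called. Pdx1, a regulator of pancreas and duodenum, stood at 6.1, 75.6 and 18.1 CPM against 2.85, 6.67, 0.567 and 2.64 CPM, while 6 of the 14 pancreatic genes, among them the enzyme genes Cpa1, Prss1 and Ctrb1, singled out after their values were seen, had 0 counts in all 7 libraries. The 3 pancreatic genes tested had a median of 2.97, and 0.48 without Foxa1 replicate 2. A count of 0 allows a level of up to 0.0961 to 0.167 CPM by library.

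Stomach and lung genes were high in other libraries. Gkn2, a gastrokine of stomach epithelium, stood at 178, 20 and 105 CPM against 291, 301, 530.1 and 81.6 CPM with overlap, and the 10 stomach genes tested had a median of -0.38 (-0.11 without Foxa1 replicate 2). Nkx2-1, the factor that specifies lung and thyroid, stood at 13.3, 0.431 and 1.91 CPM against 68.6, 11.4, 0.787 and 55.6 CPM. Sftpa1, a lung surfactant protein, stood at 1.49, 0 and 0 CPM against 98.6, 9.18, 0.0315 and 8.61 CPM. Both were highest in Foxa2 replicate 1, and Foxa2 replicate 3 lay below Foxa1 replicate 1. All 7 lung and foregut genes tested had a negative log2 fold change, with a median of -2.70 (-2.16 without Foxa1 replicate 2), 2 (28.6%) at an unadjusted p under 0.05 against 3.05% of all genes, and 0 called. Of 12 lung genes listed, 7 could be tested, because the others were too low in the 7 libraries or had no matching row.

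The plot of gene lists by library shows how far single libraries set these medians. In it each gene's log2 CPM is taken relative to its own mean over the 7 libraries. Foxa1 replicate 2 reached a median deviation of 3.59 for intestinal genes and -1.75 for collagens, and Foxa2 replicate 3 one of -2.02 for plasma proteins. Foxa2 replicate 2 reached 1.60 for epithelial regulators.

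**Figure D4:**
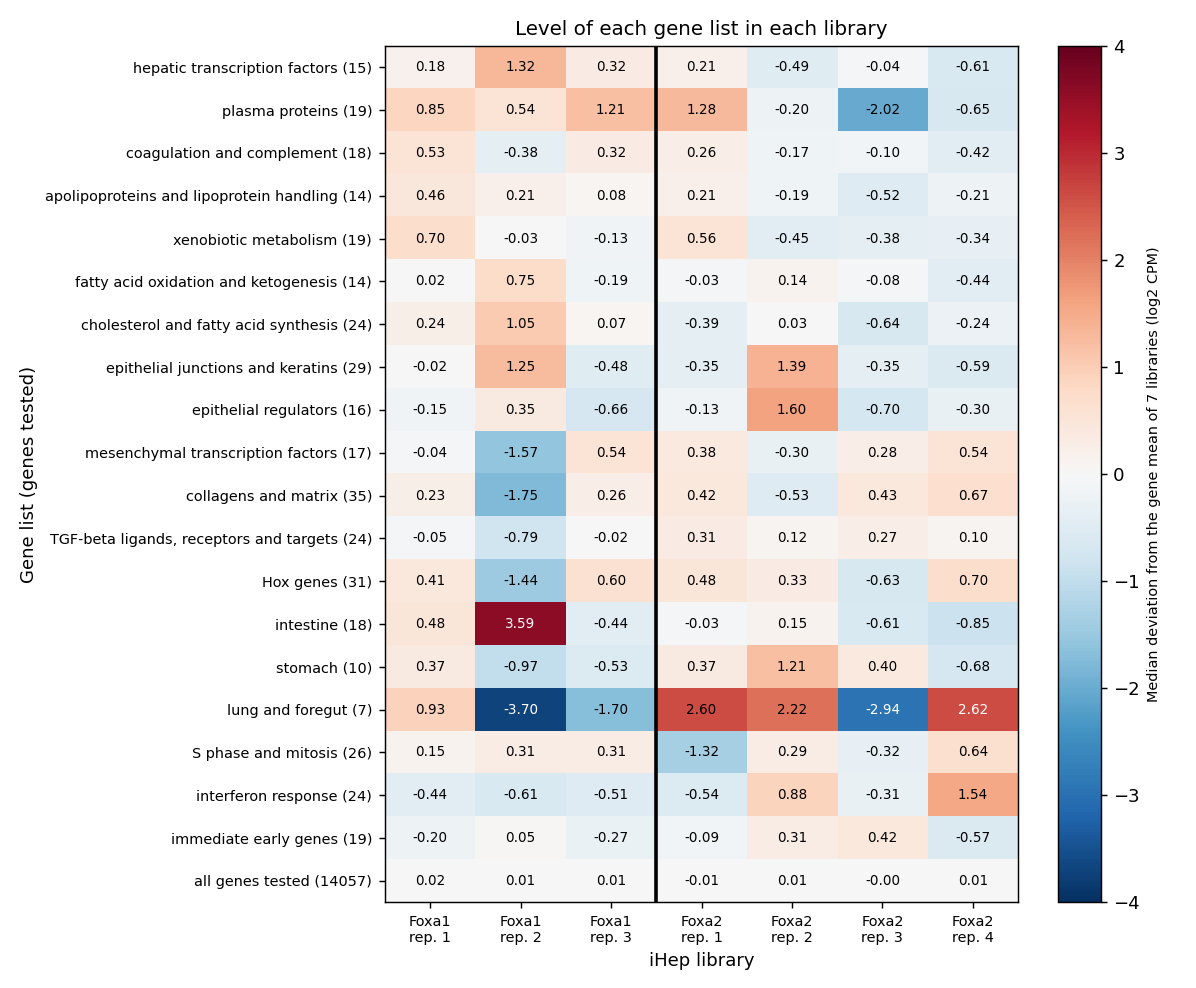
Each cell is the median, over the tested members of a gene list, of the log2 CPM in 1 iHep library minus that gene's mean over the 7 libraries (red above, blue below; Foxa1 libraries left of the line). Among the lists plotted Foxa1 replicate 2 has the most extreme cells, at 3.59 for intestine and -3.70 for lung and foregut, while all genes tested stay within 0.02 of 0 in every library.

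Cell-cycle genes were lower in 1 Foxa2 library. Foxa2 replicate 1 was the lowest of the 7 in all 26 S phase and mitosis genes. Mki67, a marker of cycling cells, stood at 206, 234 and 216 CPM in the Foxa1 cells and at 69.1, 208, 125 and 211 CPM in the Foxa2 cells, and Top2a, a topoisomerase of dividing cells, at 289, 250 and 252 against 94.3, 301, 198 and 366 CPM. For both genes Foxa2 replicates 2 and 4 lay within the Foxa1 range or above it, and replicate 3 below it. All 26 fold changes were positive with a median of 0.27, 0 were called and 0 were at an unadjusted p under 0.05.

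Interferon-response genes were higher in Foxa2 replicates 4 and 2. Replicate 4 was the highest of the 7 in 23 of 24 genes. Ifit3, an antiviral protein, stood at 40.5, 44.3 and 16.9 CPM against 28.2, 127, 45.8 and 458 CPM. Irf9, the DNA-binding part of the interferon-activated complex, stood at 33, 27.5 and 30.9 CPM against 36.2, 75.7, 52.4 and 79.5 CPM with no overlap (log2 fold change -0.998 ± 0.29), and was singled out after its values were seen. All 24 log2 fold changes were negative, with a median of -1.14 (-1.06 without Foxa1 replicate 2). Of these 7 (29.2%) were at an unadjusted p under 0.05 against 3.05% of all genes in that direction, and 0 were called. The median deviation from a gene's mean was 1.54 in Foxa2 replicate 4 and 0.88 in replicate 2, while Foxa2 replicates 1 and 3, at -0.54 and -0.31, lay near the Foxa1 libraries at -0.44, -0.61 and -0.51.

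Signals and stress genes showed small list medians. Wnt4, a secreted Wnt ligand, stood at 212, 32.6 and 251 CPM against 213, 548, 469 and 276 CPM, low in Foxa1 replicate 2 alone. Of 42 Wnt, Notch, Hedgehog and growth factor genes tested, 32 were lower on average with Foxa1, 5 of them (11.9% of the list, against 3.05% of all genes) at an unadjusted p under 0.05, with 0 called and a median of -0.57 (-0.42 without Foxa1 replicate 2). Junb, an immediate early factor, stood at 2126, 1790 and 2437 CPM against 3385, 2996, 3108 and 1688 CPM, and the 19 immediate early genes had a median of -0.39. Hspa5, the chaperone induced by unfolded proteins, stood at 1068, 1079 and 1270 CPM against 1008, 1278, 761 and 1069 CPM, and its interval of -0.31 to 0.62 lay within 2-fold. The median of 20 stress genes was -0.20. Hox genes, which keep the positional code of fibroblasts, differed between libraries of 1 group: Hoxc6 stood at 33.4, 4.16 and 54.3 CPM against 36.2, 73.6, 2.05 and 105 CPM, and the median of 31 was -0.10, and 0.01 without Foxa1 replicate 2.

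Markers of leukocytes and endothelium, which a culture from embryos could hold, were low. Of 16 leukocyte and Kupffer cell markers with a row, 14 stayed under 1 CPM in all 7 libraries, and the list summed to 24.8 to 76.4 CPM in the Foxa1 libraries and 8.82 to 71.7 CPM in the Foxa2 libraries. The macrophage receptor Csf1r was at most 0.0945 CPM. Of 16 endothelial markers, 10 stayed under 1 CPM, and the sums were 19.1 to 31.2 against 11.4 to 23.1 CPM. Of 10 erythroid markers, 7 stayed under 1 CPM in all 7 libraries, 5 of them at 0, so the sum rests on few genes. Erythroid markers summed to 162 to 295 CPM in the Foxa1 libraries and 67.8 to 171 CPM in the Foxa2 libraries, beside 78.2 and 60.2 CPM in MEF and 186 and 118 CPM in hepatocytes. Of these markers 0 of the 3 tested genes were called (median 0.72, and 0.49 without Foxa1 replicate 2). The part of such cells in the differences above was not tested.

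**Figure D5:**
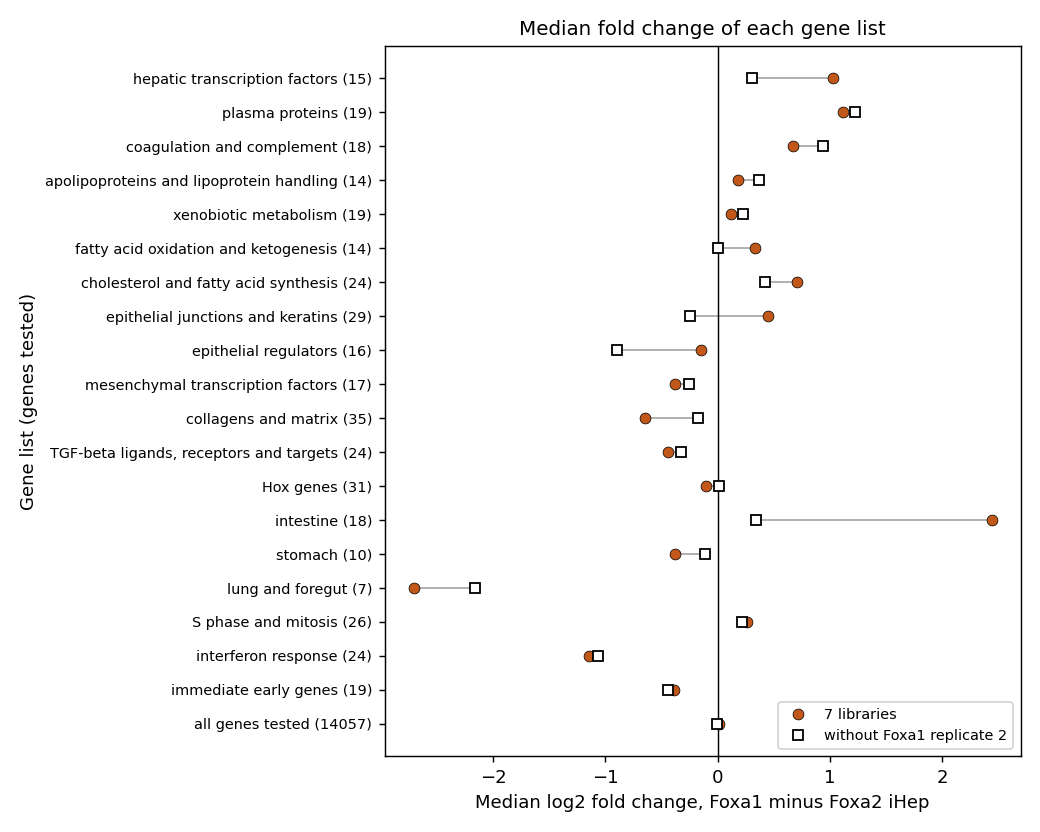
Median log2 fold change (Foxa1 minus Foxa2 iHep cells) of each gene list with 7 libraries (filled circles) and without Foxa1 replicate 2 (open squares); the number of genes tested is in brackets. The intestinal median goes from 2.44 to 0.34 and that of junctions and keratins from 0.45 to -0.25, while the interferon, plasma protein and cholesterol medians keep their sign.

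The same infections were compared at 48 h, with 2 libraries each. The 48 h libraries are of the high-Rn7sk type, so levels at 48 h and in iHep cells differ in library type as well as in stage. Only differences within a stage, and the change of such differences between the stages, are read here. Of 15519 genes, 0 (0%) were called between 48 h Foxa1 and Foxa2 cells by edgeR on 11 libraries. At an unadjusted p under 0.05 there were 27 (0.174%). The Wald test and the 28-library fit each called 2, Foxa1 and Foxa2. The edgeR fit of 11 libraries takes its spread from both stages, so the iHep libraries entered it. In that fit even the supplied Foxa2, with a 48 h log2 fold change of -8.53, had an adjusted p of 0.152. Its count of 0 therefore cannot show that the cells were alike at 48 h. Foxa1 stood at 50.5 and 46.1 CPM against 0.17 and 0.398 CPM, and Foxa2 at 0.0267 and 0.202 CPM against 45.7 and 45.5 CPM. Golm1, which separated the iHep groups, stood at 73.6 and 72.4 CPM against 78.1 and 71.8 CPM at 48 h. Id4 stood at 16.8 and 16.7 CPM against 14.5 and 15.7 CPM, and Apob at 10.6 and 10.3 CPM against 11.4 and 10.8 CPM. Across the 4 libraries at 48 h the highest value was 1.09 times the lowest for Golm1, 1.16 times for Id4 and 1.11 times for Apob.

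Whether the difference grew between the stages was tested as the iHep difference minus the 48 h difference. Library type cancels within a stage only if it acts alike on both factors, which was not tested. No gene of 15519 was called (0%) by edgeR, with 330 (2.13%) at an unadjusted p under 0.05, and the Wald test called 7, among them Enpp3, Golm1 and Id4. The edgeR fit shares 1 spread estimate between the stages, so its count of 0 cannot show that the differences were equal. On the log2 scale the iHep difference minus the 48 h difference was 5.06 ± 0.85 for Enpp3, 1.23 ± 0.22 for Golm1 and -3.12 ± 0.68 for Id4. It was 3.91 ± 1.16 for Apob and 2.75 ± 1.50 for Fgb.

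Adult hepatocytes and uninfected fibroblasts gave a scale for these differences. Between Hep and MEF, 9648 of 14218 genes (67.9%) were called by edgeR on 4 libraries. Of the genes at least 2-fold higher in Hep, 3142 were tested between the iHep groups: 1 was called (Foxa2), the median log2 fold change was 0.10 (0.02 without Foxa1 replicate 2), 187 (5.95%) were higher and 79 (2.51%) lower with Foxa1 at an unadjusted p under 0.05, against 3.64% and 3.05% of all genes. Of the genes at least 2-fold lower in Hep, 3973 were tested, with a median of -0.05 (-0.01 without that library), 98 (2.47%) higher and 170 (4.28%) lower. The single called gene, Foxa2, was lower in the Foxa1 cells and higher in hepatocytes than in MEF.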

How the data were processed

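Expression was measured by RNA sequencing of total RNA with a stranded mRNA kit, per the labels' protocols. BWA 0.7.12 and the build mm9 are named in the submitters' processing notes; the quantifier is not given in the sources used here. The deposited files hold an expected count for each of 30710 transcripts, as the authors computed it. They also hold the authors' FPKM values, which scale those counts by transcript length and depth, per the file headers. Expected counts were summed by gene to 23712 rows through RefSeq and GENCODE names and rounded. Rows without a gene name took 0.71% to 1.23% of reads in the 7 libraries and carry no gene name in the text.

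The test used edgeR 4.0.16 in R 4.3.3: filterByExpr, TMM scaling, a robust quasi-likelihood fit of 7 libraries with 5 residual degrees of freedom, a two-sided test and Benjamini-Hochberg adjustment over all genes tested, called under 0.05. Levels are CPM scaled by TMM over 28 libraries. Standard errors are the absolute log2 fold change divided by the square root of the quasi-likelihood F statistic. Intervals are 95% limits built from them with the t distribution and the total degrees of freedom of the same fit. The 48 h and stage comparisons used 11 libraries, and Hep against MEF 4. The edgeR fit of 7 libraries, DESeq2 and limma were first tested on simulated data with the same spread for all genes and libraries. The fits of other sets of libraries were not tested in this way. Alternatives were DESeq2 1.42.0 (size factors, Wald test), limma 3.58.1 on log2(FPKM + 1) or (FPKM + 0.1), no filter, the most abundant transcript, other sets of libraries, a replicate block, each library left out and a 2-fold minimum. Counting intervals cover counting error only, as reads carry no molecular identifiers.

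The members and the 38 gene lists (753 genes, 7 without a row) were chosen with earlier results of these data known. Eligible to be named were the introduced factors, the 12 largest rises and 12 largest falls among called genes with at least 5 CPM in the higher group and no overlap between the groups, and in each list at most 4 called genes by adjusted p and the 4 most abundant ones over the 7 libraries. In the other comparisons called genes were eligible, all of them up to 10 and otherwise 5 in each direction. Genes named outside this rule are marked in the text.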

Additional observations from a re-analysis of the deposited data

Results flagged for a closer look

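Dixon's test on the 4 Foxa2 libraries marked 6 of 88 genes as having a single library far from the other 3, where chance marks about 1 in 20 groups. Alb was at 914 CPM in Foxa2 replicate 1, Afp at 6.79 CPM and Sftpa1 at 98.6 CPM in the same library, and Nes, an intermediate filament gene of progenitors, at 238 CPM there. Csf1r was at 0.0945 CPM in Foxa2 replicate 3, below the level of 3 counts, and Pecam1, an endothelial adhesion gene, at 0.357 CPM in Foxa2 replicate 4.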

How the results depend on the processing

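The 7-library count of 1 called gene was the same with DESeq2 size factors, without a filter on low counts, with the most abundant transcript and with a 2-fold minimum. It was 118 with the Wald test, 49 with 28 libraries in the fit, 5 with 11 libraries, 3 with all 6 Foxa1 libraries, and 3, 2 and 2 with limma on log2(FPKM + 1), on log2(FPKM + 0.1) and without a filter. Chosen after seeing the data, the fits without Foxa1 replicate 2 called 48 genes (Wald), 9 (27 libraries) and 2 (limma). Leaving out each library gave 0 to 0 called genes, and the replicate block 0. Same-numbered libraries had correlations of deviations of 0.20, 0.23 and 0.05, and different-numbered ones from -0.30 to 0.45. Replicates 1 and 2 of the Foxa1 cells correlated best with their own number and replicate 3 with Foxa2 replicate 4. The main fit did not take the numbers as pairs, and whether they mark a shared batch was not tested. At 48 h the Wald test and the 28-library fit each called 2 genes, the other settings 0 and leave-one-out fits 0 to 1. The stage difference had 7 calls with the Wald test and 0 to 3 in leave-one-out fits, the 3 without iHep_Foxa1 replicate 1. Called genes that also differed between Hep and MEF numbered 34 of 49 in place of 1 with 28 libraries, 26 of them in the same direction. Of all 17019 genes in that fit, 10637 differed between Hep and MEF, so most genes did so whether called or not. The replicate block left both 48 h and stage counts at 0. The causes of these differences were not tested.

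Of 28 genes with a printed fold change or interval, 24 kept their direction in all alternatives run. Leaving out each library, the log2 fold change ranged from -0.0557 (without Foxa2 replicate 4) to 0.5746 for Apoa1, from -0.0762 (without Foxa1 replicate 2) to 0.5506 for Cdh1, from -0.0921 (without Foxa2 replicate 4) to 0.6094 for Hnf4a and from -0.0663 (without Foxa2 replicate 4) to 0.3305 for Glul. Without Foxa1 replicate 2, Cdh1 was -0.0833 with 27 libraries and -0.0842 in the Wald test, and Hnf4a -0.0297 and -0.0364. With the replicate block Hnf4a was -0.141 and Glul -0.0101, and with all 6 Foxa1 libraries Glul was -0.2684. Of the 28 genes, 12 were called in no alternative.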

Other observations

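Several gene lists not described above had 0 called members in edgeR on the 7 libraries. Fetal growth genes differed within each group: Igf2, a growth factor of the embryo, stood at 109.5, 763 and 712 CPM in the Foxa1 cells and at 211, 1158, 591 and 2354 CPM in the Foxa2 cells, and the 12 fetal and oncofetal genes tested had a median log2 fold change of -0.14. Spp1, osteopontin, which duct-like cells express, stood at 675, 140.2 and 100.1 CPM against 3276, 1084, 115.5 and 607 CPM, and the 20 progenitor and duct genes had a median of 0.08, and -0.09 without Foxa1 replicate 2. Of 17 mesenchymal transcription factors, 3 had a positive fold change, with a median of -0.38 (-0.26 without Foxa1 replicate 2). Twist1, one of them, stood at 28, 35 and 24.1 CPM against 55.6, 31.5, 37.5 and 24.6 CPM, with overlap.

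Among 19 p53 targets and CDK inhibitors the median was -0.24, and 0.04 without Foxa1 replicate 2. Mdm2, the p53 ubiquitin ligase, stood at 805, 237 and 911 CPM against 972, 737, 841 and 971 CPM, low in that library. The medians, with the value without Foxa1 replicate 2 in brackets, were 0.07 (-0.13) for 22 chemokine and inflammation genes, 0.81 (1.12) for 7 stellate cell genes and 0.24 (0.55) for 5 muscle and neural genes. They were -0.30 (-0.24) for 1 sex-linked transcript and 0.09 (-0.08) for 11 indicators of library type. Egfl7, a secreted protein of endothelium, stood at 9.32, 9.06 and 9.12 CPM against 4.27, 5.64, 5.16 and 6.36 CPM, with no overlap and a log2 fold change of 0.78 ± 0.22.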
